A study of Mus musculus with 6 samples.

Results

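The subject here is 93 of the 1560 rows of a small RNA table from mouse melanocytes. They are all rows whose name begins with bta-, the prefix of microRNA database entries for cattle (Bos taurus). They were chosen by name, with earlier results of these data known, and divided by whether the name carries a substitution tag. Such a tag marks a read that differs by a base or more from the reference microRNA. 28 rows carried such a tag and 65 did not. A second division, by a sequence that also stands in a mouse-named row, left 0 rows on one side. No cow-named row was identical to any of the 506 mouse-named rows, although 5 contained one or lay within one and 11 matched one over at least 16 bases with at most 1 mismatch.

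The libraries came from melan-alpha, a line of immortal, pigment-forming melanocytes of the mouse, and all 6 are labelled as extracellular vesicle RNA, whereas the extraction protocol describes cells that were collected and washed. For 3 libraries a lentivirus had brought the mouse gene for MITF into the cells, a transcription factor at the head of the melanocyte gene program. The other 3 are the MITF controls, and whether they received another virus is not said. Both groups grew in RPMI medium with fetal bovine serum. The question was whether rows named for cattle differ between the groups. The Mitf transcript was not measured by this assay. Nothing in the labels says that replicates were separate cultures, so the p-values cover the spread between these libraries alone, and that spread may be technical. In bulk libraries of this kind, fewer vesicles or cells of a type and less RNA in each cannot be told apart.

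MicroRNAs are short RNAs that guide repression of messenger RNAs, and most of their targeting is set by the seed, bases 2 to 8 from the 5′ end. Fetal bovine serum holds vesicles and free RNA of the calf, so culture medium can bring bovine small RNA into vesicle preparations. A cattle name does not by itself mark a bovine molecule, because conserved sequences and fragments of abundant RNAs can match a database entry of another species. No cow sequence was used here, and the source of these reads was not tested.

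The rows that rose with MITF overexpression and passed the test are shown first, with the seed in capitals and T written for U. They carried 8 different seeds, and only that of miR-342 was also the seed of a mouse-named row.
bta-miR-380-3p: tATGTAATgtggtccacgtct
bta-miR-1246_R+1: aATGGATTtttggagcaggg
bta-miR-1388-5p: aGGACTGTccaacctgagaat
bta-miR-6529a: gAGAGATCagaggcgcagagt
bta-miR-2284x_R-1: tGAAAAGTtcgttcgggttt
bta-miR-154c: aGATATTGcacggttgatctct
bta-miR-342_R-1: tCTCACACagaaatcgcacccatc
bta-miR-507-3p_R-1: aTTGGCATgtcttggaatga

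Rows of 4 further numbers are shown next, because the rows of these numbers together hold most of the cow-named reads. The capital marks the base at which the row differs from the cattle microRNA, as the tag in its name gives it, and mir-2887-1-p5 has no tag. All 8 rows of miR-11987 share a run of 16 bases and differ in where they begin and end. The row mir-11987-p5_2ss6TA19TG also has a second substitution, T19G, at its last base.
bta-miR-11987_L-2_1ss8TA: aggaaActctggtggaggt
bta-miR-11987_L-2R-1_1ss8TA: aggaaActctggtggagg
bta-miR-11987_L-1_1ss8TA: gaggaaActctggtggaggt
bta-miR-11980_R-2_1ss4CG: aggGaacgggcttggcgg
bta-mir-2904-2-p3_1ss13TC: cctcggttggccCcggatagccgg
bta-mir-2887-1-p5: gggtccggtgcggagagc

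The 13 rows of miR-11987, miR-11980, mir-2904 and mir-2887 are called the miR-11987 set below. They were put together after their values were seen. As background, these sequences lie within the large-subunit ribosomal RNA, which is strongly conserved among mammals. No ribosomal sequence was among the references used, so that match was not tested. The sequence of mir-2887-1-p5 was found exactly in 4 mouse genes that GENCODE M21 annotates as microRNAs on GRCm38. One of them is Gm23935 on chromosome 16, from 11144125 to 11144181. The set held 12 of the 28 tagged rows, and its median GC content was 57.9%, against 47.6% in the other cow-named rows.

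Cow-named rows as a whole did not separate the groups. Their summed level was 17305, 33254 and 22841 CPM (reads scaled to a common library total) in control replicates 1, 2 and 3. It was 19319, 19431 and 13141 CPM in the MITF overexpression replicates, so the groups overlapped, at 24467 ± 8098 against 17297 ± 3600 CPM (SD, n = 3 each).

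The tag divided this sum into parts that moved in opposite ways. Tagged rows summed to 14241, 28945 and 19029 CPM in the controls and to 12439, 12310 and 6641 CPM with MITF overexpression. Every MITF overexpression library lay below every control. Untagged rows summed to 3063, 4309 and 3812 CPM in the controls and to 6880, 7122 and 6500 CPM with MITF overexpression, 1.83-fold higher and again without overlap. The share of cow-named reads in tagged rows went from between 82.3% and 87.0% in the controls to between 50.5% and 64.4%.

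The division by tag was almost the same as a division by the miR-11987 set. That set alone summed to 14670, 30713 and 19828 CPM in the controls and to 12877, 12532 and 6804 CPM with MITF overexpression. The 16 tagged rows outside it held few reads, and their sum lay the other way, at 65.4, 13.0 and 33.9 CPM in the controls and at 216, 283 and 167 CPM with MITF overexpression. In the controls that sum was miR-378_R+1_1ss22CA alone, the only tested row of the 16, which did not pass and had a log2 fold change of -0.46 (adjusted p = 0.776). The other 15 had no reads in any control and summed to 195, 246 and 143 CPM with MITF overexpression. All 80 rows outside the set summed to 2730 ± 249 CPM in the controls and to 6559 ± 299 CPM with MITF overexpression (SD, n = 3 each), 2.40-fold higher. MiR-380-3p and miR-1246_R+1 held between 52.9% and 71.8% of those reads, and without these 2 rows the sum was 742, 777 and 849 CPM in the controls against 2682, 3253 and 2188 CPM.

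**Figure D1:**
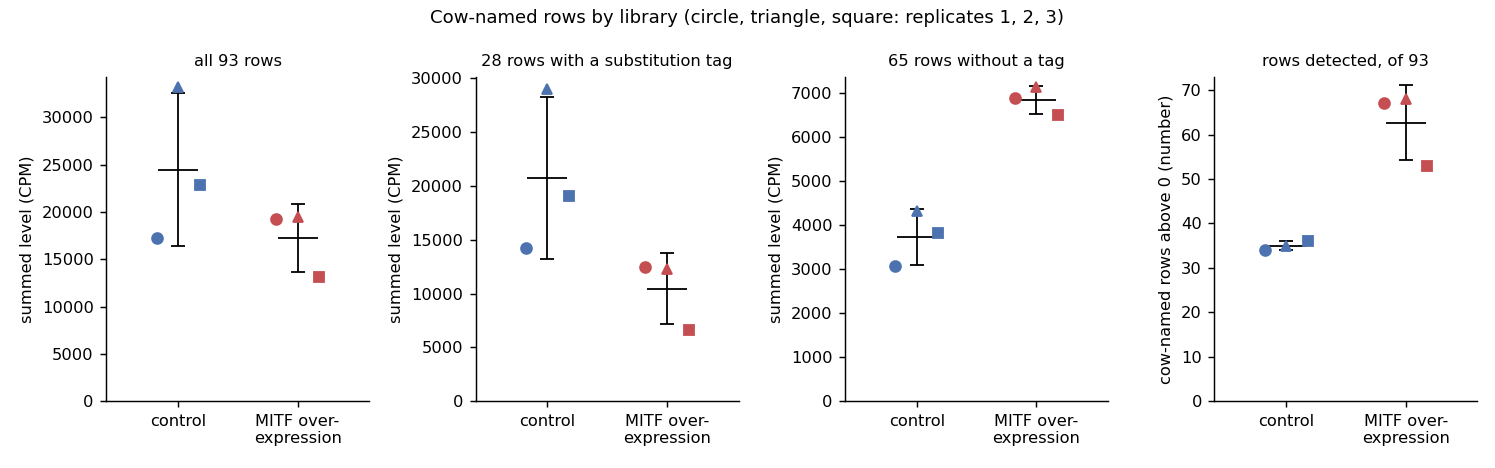
Summed level in CPM of all cow-named rows, of tagged rows and of untagged rows, and the number of cow-named rows above 0, in each library; points are libraries, the line and bar are the mean and SD of 3 libraries. All rows together overlap between groups, tagged rows lie lower with MITF overexpression (6641 to 12439 against 14241 to 28945 CPM), and untagged rows lie higher (6500 to 7122 against 3063 to 4309 CPM).

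More cow-named rows were seen with MITF overexpression. There were 34, 35 and 36 rows above 0 in the controls, against 67, 68 and 53 where MITF was overexpressed. The table as a whole moved in the same way, from 513, 612 and 677 rows to 992, 860 and 783. Cow-named rows made up 5.32% to 6.63% of the rows above 0 in the controls and 6.75% to 7.91% with MITF overexpression. 45 cow-named rows, or 48.4%, were seen only in MITF overexpression libraries, close to the 46.7% of all rows, and 3 rows, or 3.23%, only in controls, against 8.78% of all rows. The tabulated reads ranged from 342941 to 475977 in the controls and from 279142 to 448969 with MITF overexpression, so the groups overlapped in depth.

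Row by row, 32 of the 93 rows passed the filter on low counts and were tested, and the other 61, none above 62 reads in all, were not. Of the 32, 8 rose and 2 fell with MITF overexpression by edgeR's quasi-likelihood test at an adjusted p of 0.05. Over all 441 tested rows of the table, 9.98% rose and 5.22% fell. With MITF overexpression, 13 of the 32 rows lay wholly above the controls and 4 wholly below, against 25.2% and 17.2% of all tested rows. A row that enters through the group in which it is high had to differ, so these counts do not stand for the 93 rows. The median log2 fold change was 1.06 over the 32 rows and 0.08 over all tested rows. The 8 rows that rose carried no tag, and both rows that fell were tagged rows of miR-11987. Single libraries decide these counts, with 0, 2 and 1 rises left without MITF overexpression replicate 3, MITF overexpression replicate 2 and control replicate 2. The 2 falls became 0 without any of these 3 libraries, 1 without control replicate 3 and 4 without control replicate 1.

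**Figure D2:**
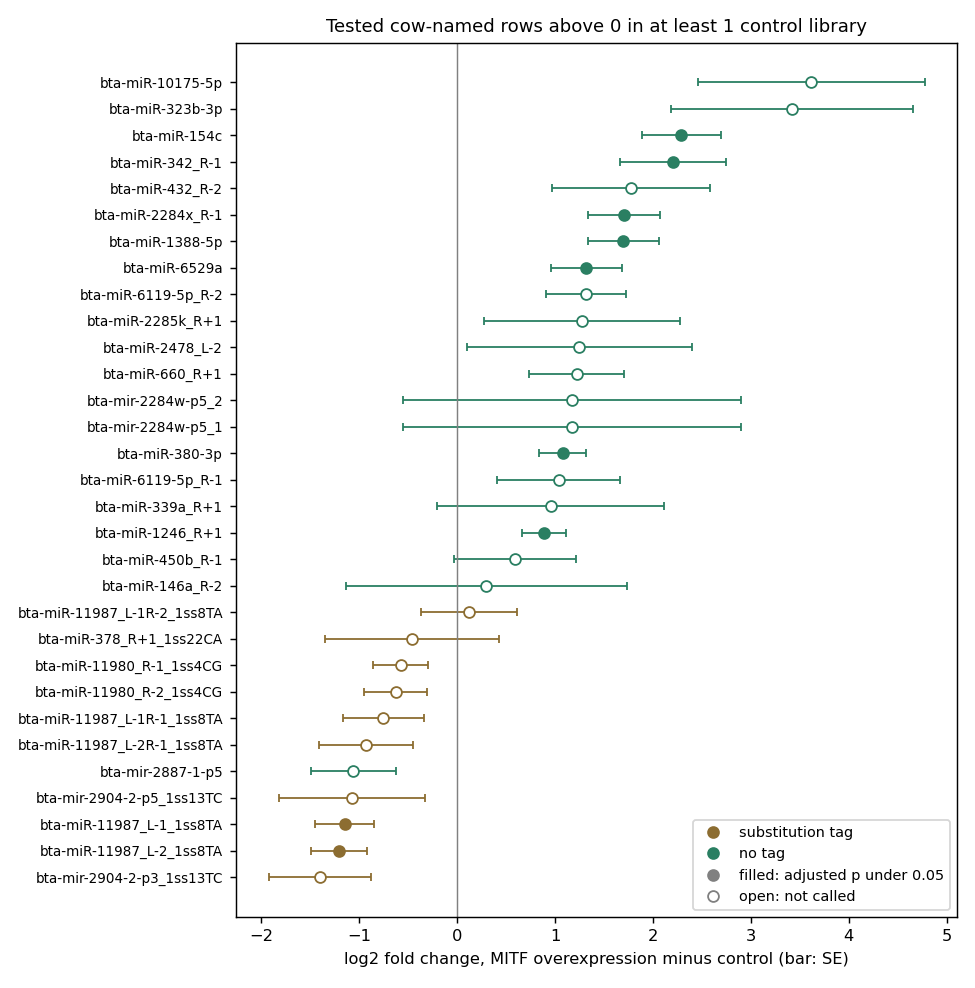
Log2 fold change, MITF overexpression minus control, with its SE for the tested cow-named rows above 0 in at least 1 control library; colour gives the tag and filled points passed the adjusted p of 0.05. Untagged rows lie mostly to the right of 0, up to 3.62, and tagged rows mostly to the left, down to -1.40; miR-507-3p_R-1, at 0 in every control, is not drawn.

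Of the rows that rose, 2 belong by number to the Dlk1-Dio3 imprinted region, a large microRNA cluster expressed from the maternal chromosome and known from embryonic and placental tissue. MiR-380-3p, the most abundant of the rows that rose, stood at 958, 944 and 1095 CPM in the controls and at 2268, 1516 and 2540 CPM with MITF overexpression. The lowest MITF overexpression library was above the highest control, and the log2 fold change was 1.08 ± 0.24 (SE, adjusted p = 0.0218). MiR-154c was at 36.0, 31.3 and 36.1 CPM in the controls and at 206, 163 and 140 CPM with MITF overexpression. This is a log2 fold change of 2.29 ± 0.41 (SE, adjusted p = 0.0200), on controls that differed little from each other.

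Other cow-named rows of this region did not pass. MiR-432_R-2 was at 0, 49.5 and 74.5 CPM in the controls and at 153, 173 and 114 CPM (adjusted p = 0.146), and miR-323b-3p had 0, 0 and 7 reads against 48, 13 and 13 (adjusted p = 0.0815). MiR-656 was not tested, with 0 reads in every control and 5, 6 and 15 with MITF overexpression. Other untested rows were mixed. MiR-665 lay wholly above the controls, miR-411c-5p overlapped (0, 9 and 11 reads against 23, 6 and 11), and miR-493 was lower on average (4.90 against 1.91 CPM). MiR-154b, miR-376e and miR-541_R-1_1ss21CG had no control reads and were missing from at least 1 MITF overexpression library. In all, 11 cow-named rows carried numbers of the region. Those 11 rows were picked by number after values were seen, and 4 of them were tested and 2 rose. They summed to 1114 ± 130 CPM in the controls and 2613 ± 536 CPM with MITF overexpression (SD, n = 3 each). MiR-380-3p made up 86.9% to 95.0% of that sum in the controls and 75.9% to 85.3% with MITF overexpression. Without it the sum was 50.7, 130 and 165 CPM against 593, 482 and 439 CPM. Of 16 mouse-named microRNAs of the same region, 12 were in the table, 10 were tested and 6 rose, where 9.98% of all tested rows did. The other 4 did not pass, among them miR-379-5p at a log2 fold change of -0.14 and miR-411-5p_L+1 at -0.09. The 12 summed, mostly through miR-369-3p and miR-127-3p_R-2, to between 3237 and 4507 CPM in the controls and between 8758 and 9862 CPM with MITF overexpression.

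Letters that differ between the cow-named rows and the mouse microRNAs of the same region are in capitals here, to show how far the names can be told apart. The mouse sequences are from RefSeq on GRCm38.p6, and positions are counted from 1 at the 5′ end, with the mouse base first.
bta-miR-380-3p: tatgtaAtGtggtccacGtct
mmu-miR-380-3p: tatgtaGtAtggtccacAtctt
bta-miR-323b-3p: cacaAtacacggtcgGcctct
mmu-miR-323-3p: cacaTtacacggtcgAcctct

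MiR-380-3p differed from the mouse form by G7A, A9G and A18G, and the first of these lies in the seed. The mouse hairpin is at chr12:109711803-109711863. No mouse-named row of miR-380 was among the tested rows. MiR-323b-3p differed from mouse miR-323-3p, a name without the b, by T5A and A16G, also with another seed. Whether they are counterparts or different members of the region was not tested. The mouse-named miR-323-3p had 0 reads in every control and 5, 0 and 13 with MITF overexpression. Against the 1005 RefSeq mouse hairpins, 0 of the 93 rows matched exactly, 6 had 1 mismatch, 10 had 2 and 77 had more.

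MiR-1246_R+1 was the other abundant row that rose. In humans, miR-1246 has been traced to fragments of the U2 small nuclear RNA. It stood at 935, 821 and 1068 CPM in the controls and at 1493, 2130 and 1608 CPM with MITF overexpression, with no overlap and a log2 fold change of 0.89 ± 0.23 (SE, adjusted p = 0.0283). Human-named rows also carried this number. Of these, hsa-miR-1246_L-2R+1 rose (log2 fold change 2.05, adjusted p = 0.0189). The rows hsa-miR-1246_L-1R+1 (1.08, adjusted p = 0.0534) and hsa-miR-1246 (1.48, adjusted p = 0.107) did not pass, and hsa-miR-1246_1ss3TC was not tested. The authors' share of raw reads classed as small nuclear RNA was 0.09%, 0.15% and 0.09% in the controls, against 0.12%, 0.14% and 0.10%, which overlapped. Its part in the result was not tested.

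MiR-2284x_R-1 belongs to the miR-2284 and miR-2285 families, which are known from ruminants and are among the largest microRNA families of cattle. It was at 75.2, 57.4 and 92.6 CPM in the controls and at 226, 327 and 187 CPM with MITF overexpression, a log2 fold change of 1.70 ± 0.37 (SE, adjusted p = 0.0215). Of the 17 rows of these families, 4 were tested and only this one rose. The family sum was 170, 86.0 and 104 CPM in the controls and 335, 699 and 479 CPM with MITF overexpression, without overlap. Control libraries held 5, 2 and 2 of the 17 rows above 0, and MITF overexpression libraries held 6, 16 and 10. MITF overexpression replicate 2 thus stood highest in both measures. The rows mir-2284w-p5_1 and mir-2284w-p5_2, both among the 4 tested, held equal reads in every library, though they were 20 and 22 bases long. Whether they shared reads was not tested.

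The remaining rows that rose were less abundant. MiR-1388-5p went from 55.6, 73.0 and 113 CPM to 274, 278 and 240 CPM (log2 fold change 1.70 ± 0.36, SE, adjusted p = 0.0211). MiR-6529a, whose sequence also stands in a guinea pig-named row so that reads are shared, went from 81.7, 78.2 and 122 CPM to 251, 287 and 172 CPM (1.32 ± 0.36, adjusted p = 0.0338). The call of miR-6529a was lost in 8 of 15 alternatives, whose adjusted p ranged from 0.0165 to 0.111, with DESeq2 (0.0926) and no filter (0.0783) among them. Neither overlapped between groups. MiR-507-3p_R-1, from a family that in primates is an X-linked cluster, had no reads in any control and 19, 28 and 14 with MITF overexpression (adjusted p = 0.0218). Set against a floor of 3 reads over the control group, that is at least 21.4-fold higher. This row passed the filter through the MITF overexpression group alone, so its p-value and bound rest on the values that admitted it. MiR-10175-5p, at 0, 0 and 7 reads against 22, 19 and 37, and miR-6119-5p_R-2, at 67.1 against 167 CPM on average, did not pass (adjusted p = 0.0590 and 0.0534).

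**Figure D3:**
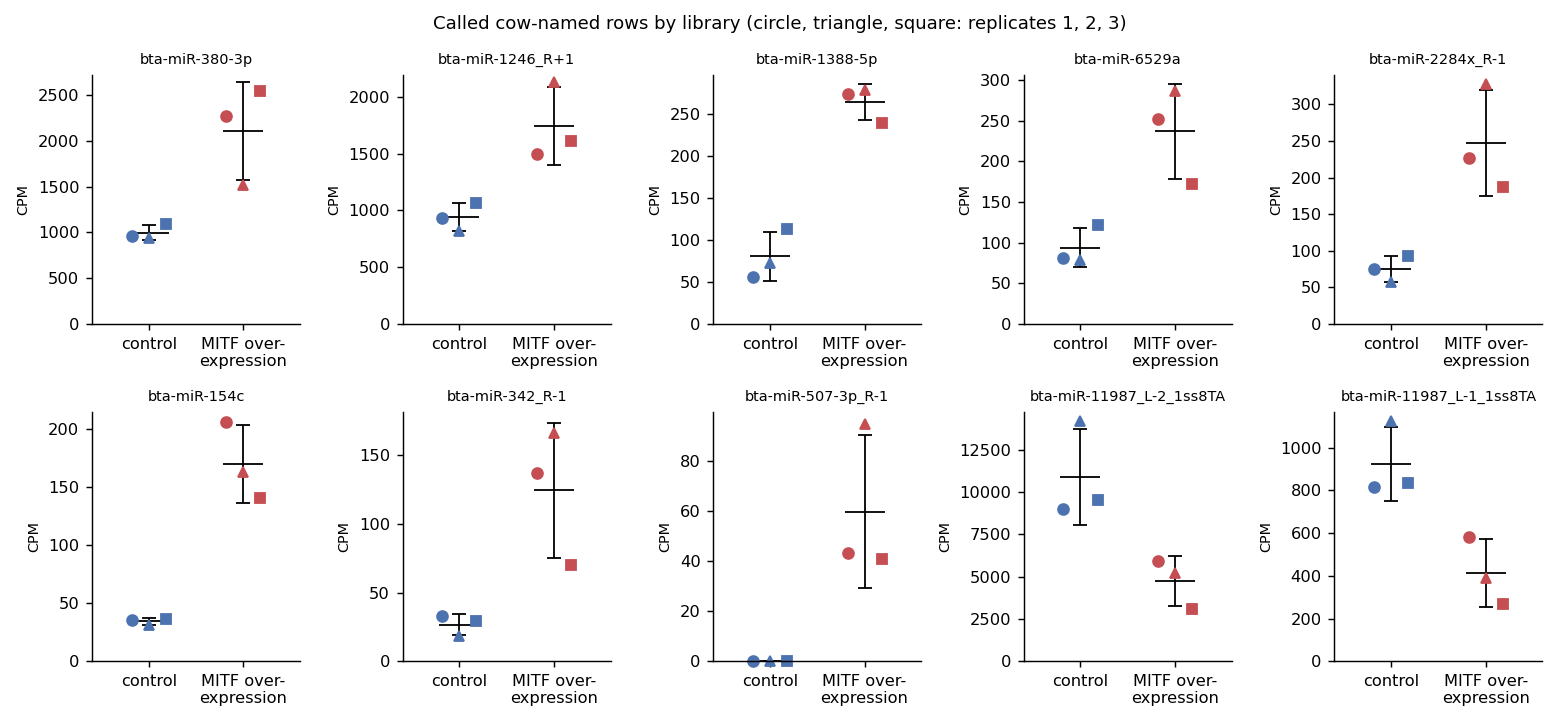
Level in CPM of the 10 cow-named rows past the adjusted p of 0.05, in each library, with the mean and SD of 3 libraries per group. In the first 8 panels every MITF overexpression library lies above every control, and in the last 2, both rows of miR-11987, every one lies below.

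Both rows that fell were start variants of 1 sequence, miR-11987. The first, miR-11987_L-2_1ss8TA, was the most abundant cow-named row, at 8986, 14171 and 9501 CPM in the controls and 5910, 5212 and 3081 CPM with MITF overexpression. Its log2 fold change was -1.20 ± 0.29 (SE, adjusted p = 0.0236). The second, miR-11987_L-1_1ss8TA, was at 817, 1124 and 832 CPM against 584, 392 and 269 CPM, a log2 fold change of -1.15 ± 0.30 (SE, adjusted p = 0.0303). Neither row overlapped between groups.

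Shorter forms of the same sequence did not pass the test. MiR-11987_L-2R-1_1ss8TA, 1 base shorter at the 3′ end, was at 2235, 9081 and 5154 CPM in the controls and at 3675, 3511 and 1469 CPM (log2 fold change -0.93, adjusted p = 0.197), and the groups overlapped. MiR-11987_L-1R-2_1ss8TA had a log2 fold change of 0.12 (adjusted p = 0.892). Reads of the 18-base form made 0.249, 0.641 and 0.542 times those of the 19-base form in the controls and 0.622, 0.674 and 0.477 times with MITF overexpression, so the length ratio overlapped and control replicate 1 was lowest.

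The rest of the miR-11987 set lay on the same side without passing. MiR-11980_R-2_1ss4CG had a log2 fold change of -0.62 (adjusted p = 0.204) and miR-11980_R-1_1ss4CG one of -0.57 (adjusted p = 0.176). Mir-2904-2-p3_1ss13TC was at -1.40 (adjusted p = 0.0889) and mir-2904-2-p5_1ss13TC at -1.07 (adjusted p = 0.356). The untagged mir-2887-1-p5 stood at 494, 1780 and 833 CPM in the controls and at 654, 505 and 330 CPM with MITF overexpression (log2 fold change -1.06, adjusted p = 0.114), with overlap. Control replicate 2 was the highest library for the sum of the set. Such a fall was not particular to cow-named rows, since 15 of 285 tested mouse-named rows fell. Among them was the tagged mmu-mir-6240-p5_1ss15TG, at 11815, 18496 and 13612 against 9149, 5631 and 4207 CPM (log2 fold change -1.21, adjusted p = 0.0260). Its p3 form did not pass (-0.04, adjusted p = 0.940). The authors' share of raw reads classed as ribosomal was 6.65%, 7.55% and 7.40% in the controls, against 6.50%, 5.68% and 5.91%, lower in every MITF overexpression library. The part of this share in the fall of the set was not tested.

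Where a cow-named and a mouse-named row differ by few bases, their ratio within a library does not depend on scaling. There were 14 such pairs, matched over at least 19 bases with at most 3 mismatches, and both rows were tested in 5 of them. The miR-342 pair is shown because its cow-named row rose. MiR-342 lies in an intron of the gene Evl in mammals. The differing base is in capitals.
bta-miR-342_R-1: tctcacacagaaatcgcacccAtc
mmu-miR-342-3p: tctcacacagaaatcgcacccGt
bta-miR-450b_R-1: ttttgcaAtatgttcctgaat
mmu-miR-450b-5p: ttttgcaGtatgttcctgaata

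The cow-named miR-342_R-1 differed by G22A, outside the seed, and miR-450b_R-1 by G8A, inside it. The mouse hairpins are at chr12:108658620-108658718 and at chrX:53047997-53048078 on the minus strand (GRCm38.p6). MiR-342_R-1 was at 32.7, 18.2 and 29.4 CPM in the controls and at 137, 166 and 70.2 CPM with MITF overexpression (log2 fold change 2.21 ± 0.54, SE, adjusted p = 0.0236). Mouse-named miR-342-3p had 305, 314 and 501 reads against 389, 231 and 206, with a log2 fold change of -0.37 (adjusted p = 0.303).

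The cow-named row thus held 3.17%, 2.18% and 2.53% of the reads of the miR-342 pair in the controls, against 13.4%, 17.5% and 10.4%. The difference in the log2 ratio was 2.49, and the two-sided exact permutation test gave p = 0.1, the smallest that 3 libraries against 3 allow, or 0.25 adjusted over the 5 pairs. MiR-450b_R-1 had the same sequence as an armadillo-named row, and reads were split equally between them. For miR-450b the shares of the cow-named row alone were 8.43%, 15.7% and 10.8% against 23.5%, 19.1% and 33.3%, a difference of 1.36 with the same p-values. With both rows of that sequence added they were 15.6%, 27.1% and 19.6% against 38.1%, 32.1% and 50.0%, again without overlap. The pairs of miR-339a, miR-378 and miR-146a overlapped between groups (exact permutation p = 0.5, 0.7 and 0.6, each 0.7 adjusted). For miR-146a, a microRNA of innate immune signalling, the cow-named row held at most 0.120% of the pair in any library.

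**Figure D4:**
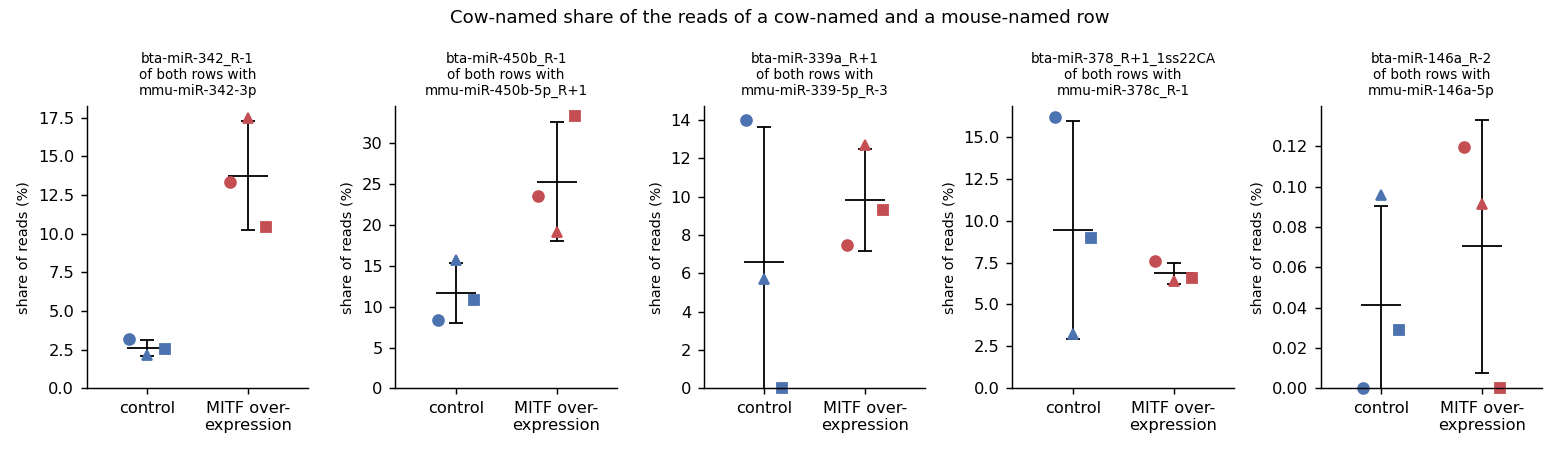
Share in percent of the reads of a cow-named and a mouse-named row that fell to the cow-named row, in each library, with the mean and SD of 3 libraries, for the 5 pairs in which both rows were tested. For miR-342 (10.4% to 17.5% against 2.18% to 3.17%) and miR-450b (19.1% to 33.3% against 8.43% to 15.7%) the groups do not overlap, and for the other pairs they do.

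Markers of blood cells, liver and endothelium gave unlike counts. Of 9 red and white blood cell markers, 8 were listed, with miR-486a-5p the exception. 7 were tested and 4 rose, against 9.98% of all tested rows, and they summed to between 1643 and 2563 CPM in the controls and between 4792 and 8735 CPM with MITF overexpression. The 3 liver markers summed to between 9872 and 17489 CPM against between 24079 and 107690 CPM, and only miR-122-5p_R-1 rose of the 3. By replicate it was at 9906, 8848 and 16385 CPM against 102960, 30121 and 22727 CPM. MiR-192-5p_R-1 was at 1187, 936 and 989 CPM against 4115, 1052 and 1234 CPM. MiR-194-5p was at 93.2, 88.6 and 115 CPM against 615, 126 and 118 CPM. The 2 endothelial markers overlapped, at 2233 to 2409 against 1825 to 9080 CPM, and neither passed the test. The highest sums of the blood, liver and endothelial markers were all those of MITF overexpression replicate 1. The 3 melanocyte markers, miR-211 and miR-204 forms, all rose, from between 1976 and 2771 CPM to between 4554 and 5916 CPM, and none of the markers listed for the melanocyte was absent. Because such microRNAs are conserved, a mouse-named row can also hold reads of another mammal, and the part of these sources in the cow-named rows was not tested.

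Base composition followed the same division. Over the 32 tested rows, GC content and log2 fold change had a Spearman rho of -0.47, and over the 22 tested rows outside the miR-11987 set it was 0.27. Over all 441 tested rows of the table it was -0.03. These are correlations across rows of the same 6 libraries, and rows are not independent replicates.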

How the data were processed

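Small RNA of 3 control and 3 MITF overexpression libraries was analysed. Per the file headers, the authors deposited estimated counts per library for each named sequence, which need not be whole because reads are split among rows, and a second table holds read counts of each class with their percent of raw reads. Per the submitters' processing notes the build was mm9; no aligner or counter is named there. 4 lines without values were not used, and normalized columns were left aside.

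Estimated counts were rounded and tested over all rows with edgeR 4.0.16 in R 4.3.3 (filterByExpr with a minimum count of 10, TMM, quasi-likelihood test, group as the only term). All tested rows entered the Benjamini-Hochberg adjustment, and calls needed an adjusted p under 0.05. CPM use TMM-scaled totals of the reads in tested rows. Libraries held 279142 to 475977 tabulated reads over all rows, which limits rows of few reads, and floors cover counting error only. The fit was tested on simulated data.

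Members and lists were chosen with earlier results of these data known. Named rows were all called rows, the 12 most abundant, the 5 largest and 5 smallest log2 fold changes and rows seen in 1 group alone. Others (further Dlk1-Dio3 numbers, pairs, short forms of miR-11987, miR-6119, mouse-named mir-6240) were named after their values were seen. Alternatives were DESeq2 1.42.0, other scalings and filters, left-out libraries, a replicate block, summed identical sequences and rows like mouse rows left out. Setting the miR-11987 set apart was added after seeing the data.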

Additional observations from a re-analysis of the deposited data

Results flagged for a closer look

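5 cow-named rows had reads in all 3 MITF overexpression libraries and none in any control, but too few for the filter, so they were not tested. MiR-424-5p had 14 reads in all (5, 5 and 4 by replicate), at least 4.92-fold above a floor of 3 reads over the control group. MiR-2284w_R-1 had 33 (12, 12 and 9), at least 11.6-fold above it. MiR-2285bf_R-1_1ss20TC had 36 (13, 6 and 17), at least 12.6-fold above it. MiR-656, of the Dlk1-Dio3 region, had 26 (5, 6 and 15), at least 9.13-fold above it. MiR-146a_R-3_1ss20GA had 54, of which 39 were in MITF overexpression replicate 1, with 9 and 6 in the others, at least 18.97-fold above the floor. With miR-507-3p_R-1, which was tested, this pattern was seen in 6 of 93 cow-named rows (6.45%) and in 30 of all rows (1.92%). The converse was seen in 0 cow-named rows and in 4 of all rows (0.256%).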

How the results depend on the processing

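Counts of rises and falls rested on single libraries. Leaving out each library in turn gave 0 to 10 rises and 0 to 4 falls among cow-named rows, and 0 to 41 rises and 0 to 23 falls among all rows, against 8, 2, 44 and 23. Without MITF overexpression replicate 3 edgeR called 0 cow-named rows. An unadjusted p under 0.05 was then found for 14 of 35 tested cow-named rows and 135 of all 495 tested rows. Replicate numbers did not pair the libraries (correlation of deviations -0.05, 0.04 and -0.01 for equal numbers). A replicate block gave 0 rises and 0 falls among cow-named rows, and 1 rise and 1 fall among all rows. With the block, 13 of 32 tested cow-named rows and 128 of all 441 had an unadjusted p under 0.05. DESeq2 called 11 rises and 2 falls among 46 tested cow-named rows, and 46 rises and 28 falls among all 650. With no filter the falls were 4 of 93 cow-named rows and 29 of all 1560. With a stricter filter the rises were 11 of 27 tested cow-named rows and 69 of all 397. Total-count and upper-quartile scaling moved the median log2 fold change by 0.16 and 0.21 and gave 15 and 12 falls over all rows. Leaving out the miR-11987 set gave 0 falls, and log2 differences of sums of 1.27 for all cow-named rows (from -0.47), 2.82 for tagged rows (from -0.98, with 1 row holding all control reads) and 1.24 for untagged rows (from 0.89). For untagged rows upper-quartile scaling gave 1.10. Leaving out each library gave -0.73 to -0.19, -1.26 to -0.68 and 0.72 to 1.03 for these sums. Of 285 log2 fold changes of 19 named rows under alternatives, 0 reversed, 44 lost and 12 gained the call. Only called rows could lose it, and each did so in 2 to 8 of its 15 alternatives. The cause of these changes was not tested.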
